A study of Mus musculus with 9 samples.

Results

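Matricellular proteins are secreted into the extracellular matrix, where they bind collagens, growth factors and cell surface receptors without forming the structural scaffold itself. SPARC, also known as osteonectin or BM-40, binds collagen and calcium and is known as an abundant product of the parietal endoderm, the extra-embryonic endoderm layer that lays down Reichert's membrane, a thick basement membrane. Thrombospondins bind CD47, tenascin C and periostin bind integrins, and the SMOC proteins are modular calcium-binding relatives of SPARC found in basement membranes. The group described here was defined by name, as all array probes annotated to Sparc, Sparcl1, Thbs1, Thbs2, Tnc, Postn, Spp1, Tgfbi, Smoc1 or Smoc2. Of these 10 genes, 9 had at least 1 probe, with 21 probes among the 45281 on each array. Spp1, which encodes osteopontin, had no probe named for it and is not analysed here.

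RNA was measured on 9 Illumina mouse bead arrays, 3 for each of END2, PYS2 and XEN cells (xen10 in the sample titles). END2 is an endoderm-like line that derives from the P19 embryonal carcinoma and was grown in DMEM/F12 medium. PYS2 originated in a tumor of the 129 mouse strain and XEN in ICR blastocysts, and both were grown in high glucose DMEM. Sodium pyruvate and beta-mercaptoethanol were added to the PYS2 and XEN medium and are not listed for END2. Wherever END2 is compared, medium and line cannot be told apart. All 3 lines received fetal bovine serum, and no other treatment is described. Each group is 1 established line, and nothing states that its 3 arrays came from separate cultures. The p-values therefore measure the spread between arrays, which may be technical, and precision is limited by the number of arrays.

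A probe was called detected on an array at a detection p under 0.01, and a gene was called present in a line when a probe was detected on at least 2 of its 3 arrays. Between 13051 and 14940 probes were detected per array. Replicate 3 of END2 stood apart from the other END2 arrays, at Euclidean distances of 72.1 and 78.5 over the log2 levels of 16299 tested probes, while replicates 1 and 2 were 35.0 apart and arrays of different lines were 122.8 to 195.4 apart. XEN replicate 2 had the highest median signal, 43.5 intensity units against 21.3 to 30.9 on the other arrays. Of 14 primitive and parietal endoderm markers, END2 cells had 10 present, PYS2 cells 13 and XEN cells 13. Of 9 visceral endoderm markers, END2 cells had 1 present, PYS2 cells 6 and XEN cells 5. Presence here means array detection, and the authors' qRT-PCR differed for some markers. By qRT-PCR they found no Gata4, Pdgfra or Foxa2 expression in END2 cells, where the arrays called these genes present. They also found Ttr expressed in END2 cells at a lower level, where the arrays did not detect it. Of 13 mesenchymal markers with a probe, END2 cells had 10 present, PYS2 cells 1 and XEN cells 3.

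Sparc was present in all 3 lines, Thbs1 and Tnc in END2 cells alone, and Smoc1 in PYS2 and XEN cells. Thus 3 of the 9 genes with a probe were present in END2 cells (44.2% of all 19057 named genes were), 2 in PYS2 cells (41.5%) and 2 in XEN cells (41.5%). The other 5 genes, Sparcl1, Thbs2, Postn, Tgfbi and Smoc2, were detected on no array. Their 8 probes gave 9.3 to 36.8 intensity units over 72 readings, with detection p from 0.1165 to 0.9968.

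**Figure D1:**
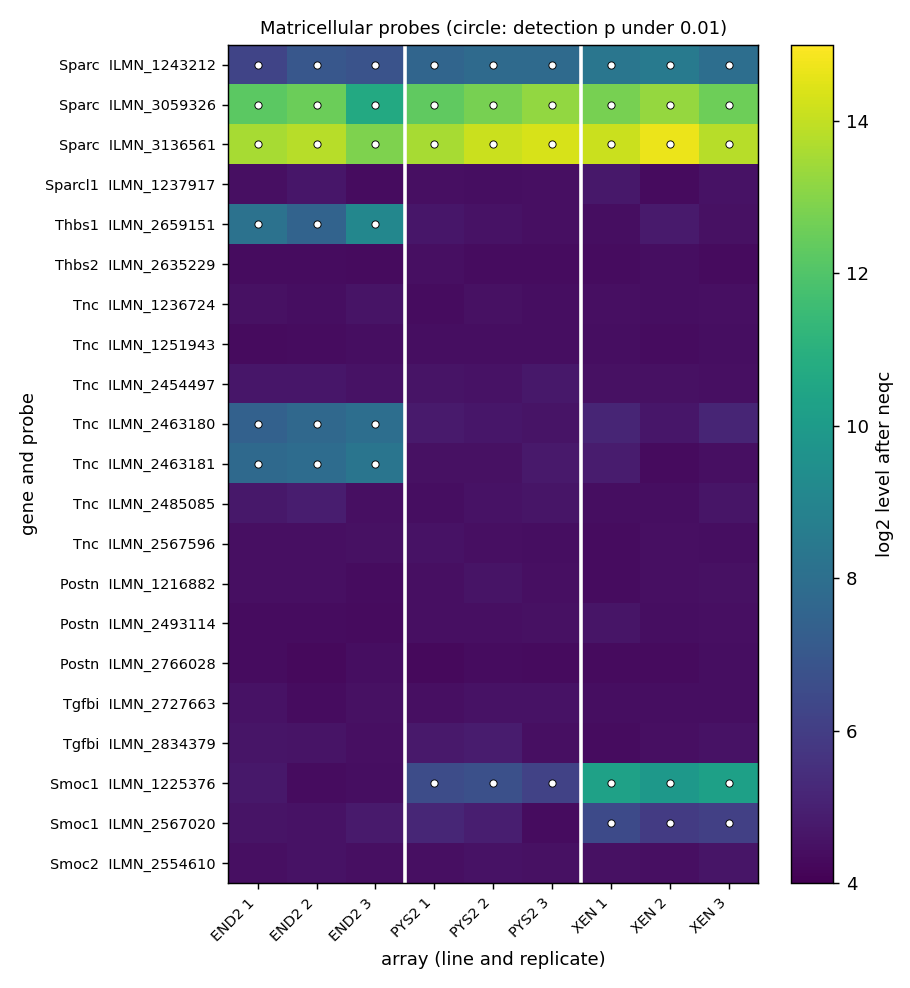
Normalized log2 level of all 21 matricellular probes (rows, by gene) on the 9 arrays (columns, END2, PYS2 and XEN from left to right), with a white circle where the probe was detected. Sparc was detected by all 3 probes on every array, while detection of Thbs1 and Tnc was confined to END2 arrays and detection of Smoc1 to PYS2 and XEN arrays.

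Promoter sequences are shown for 2 genes with different patterns, Sparc, present in all 3 lines, and Tnc, present in END2 cells. They are RefSeq windows of GRCm38.p6, 250 bases before to 50 after the start of the gene, and 6 of the 10 genes had such a window. The Sparc window is chr11:55420031-55420330 on the minus strand and the Tnc window, the outer of 2 overlapping ones, is chr4:64046966-64047265 on the minus strand. Capitals mark matches, on either strand, to the TATA box (TATAAA), the AP-1 motif (TGANTCA), the GC box (GGGCGG), the GATA motif (TTATCT) or the E-box (CANNTG).
Sparc: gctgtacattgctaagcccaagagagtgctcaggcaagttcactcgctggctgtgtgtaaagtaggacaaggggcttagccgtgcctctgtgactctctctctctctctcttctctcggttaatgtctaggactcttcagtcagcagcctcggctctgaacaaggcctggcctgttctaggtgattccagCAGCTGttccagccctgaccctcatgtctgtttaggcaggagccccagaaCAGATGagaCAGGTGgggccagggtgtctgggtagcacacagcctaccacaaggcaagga
Tnc: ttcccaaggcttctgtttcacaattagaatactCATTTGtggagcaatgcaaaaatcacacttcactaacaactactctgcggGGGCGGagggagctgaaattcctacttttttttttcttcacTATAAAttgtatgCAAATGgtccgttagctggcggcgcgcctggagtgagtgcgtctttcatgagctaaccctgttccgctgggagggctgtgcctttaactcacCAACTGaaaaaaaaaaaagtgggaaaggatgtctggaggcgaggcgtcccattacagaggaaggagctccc
The Sparc window held 3 matches to CANNTG, the E-box, which begin at positions -60, -10 and -1 from the start, and none to the other motifs. The Tnc window also held 3 matches to CANNTG, 1 to TATAAA at -126 and 1 to GGGCGG at -167. No match overlapped another in either window. Of 32851 mouse promoter windows of the same length, 72.3% held CANNTG, 13.6% TATAAA, 35.7% GGGCGG, 7.81% TGANTCA and 11.2% TTATCT. These are matches of letters, and binding was not measured.

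Sparc was detected by 3 probes on all 9 arrays. On the scanner scale its brightest probe, ILMN_3136561, read 12403, 14989 and 6887 intensity units on the END2 arrays, 11015, 19820 and 18182 on the PYS2 arrays and 16955, 25380 and 13352 on the XEN arrays. The highest signal recorded on any of the arrays lay between 28287 and 35038. The second probe, ILMN_3059326, read 5098, 6182 and 1477 in END2, 4295, 7664 and 8242 in PYS2 and 5951, 13929 and 5435 in XEN cells. The third, ILMN_1243212, was far dimmer, at 103, 169 and 99.0 in END2, 150.2, 256 and 208 in PYS2 and 223, 569 and 193 in XEN cells. All 3 probes had their highest reading on XEN replicate 2 and their lowest on END2 replicate 3.

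**Figure D2:**
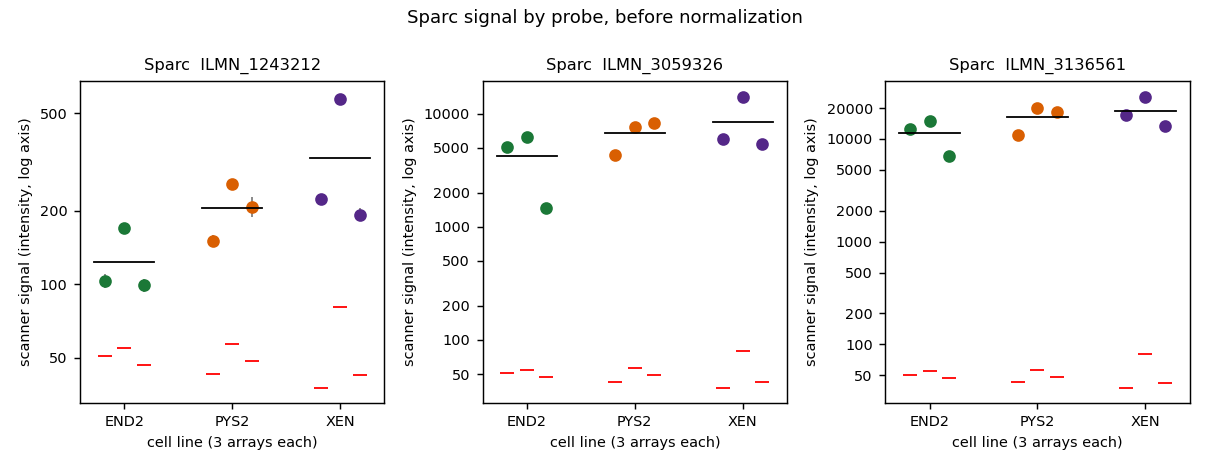
Scanner signal of the 3 Sparc probes on each array (log axis, intensity units, 1 panel per probe), for END2, PYS2 and XEN cells. Filled points are arrays that detected the probe, grey bars the standard error over the beads of that array, black lines the mean of 3 arrays and red marks the lowest signal of any detected probe on the array. All 27 readings lie above the red marks.

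After normalization the mean level of Sparc was lowest in END2 and highest in XEN cells for all 3 probes. ILMN_3136561 averaged 13.42 ± 0.48 on the log2 scale for END2, 14.00 ± 0.39 for PYS2 and 14.20 ± 0.44 for XEN (SD, n = 3 each). By this probe Sparc was 1.71-fold lower in END2 cells than in XEN cells (log2 difference -0.78, SE 0.29, adjusted p = 0.0437, limma). The END2 and XEN arrays did not overlap on this scale (highest END2 level 13.80, lowest XEN level 13.81), although their scanner signals did. The differences between END2 and PYS2 cells (-0.58, SE 0.29, adjusted p = 0.120) and between PYS2 and XEN cells (-0.20, SE 0.29, adjusted p = 0.647) did not pass, with 95% intervals of -1.22 to 0.07 and -0.84 to 0.44. Neighbours in the order END2, PYS2, XEN therefore did not differ beyond their spread by this probe.

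The other Sparc probes gave the same order with different errors. The dim probe ILMN_1243212 averaged 6.68 ± 0.38 on the log2 scale for END2, 7.74 ± 0.12 for PYS2 and 8.26 ± 0.26 for XEN (SD, n = 3 each), and no 2 lines overlapped on this scale, although the scanner signals of PYS2 cells overlapped those of both END2 and XEN cells. By this probe Sparc was 2.09-fold lower in END2 cells than in PYS2 cells (log2 difference -1.06, SE 0.21, adjusted p = 0.00143) and 3.0-fold lower in END2 cells than in XEN cells (-1.59, SE 0.21, adjusted p = 7.52e-05). Its difference of -0.52 between PYS2 and XEN cells had an adjusted p of 0.0773. ILMN_3059326 passed in no comparison, with -0.95 for END2 minus PYS2 (SE 0.41, adjusted p = 0.0724), -1.05 for END2 minus XEN (adjusted p = 0.0516) and -0.10 for PYS2 minus XEN (adjusted p = 0.893). It passed for END2 minus XEN under 5 of 19 alternatives. With the 3 probes averaged, Sparc was lower in END2 cells than in PYS2 cells by a log2 difference of -0.86 (SE 0.26, adjusted p = 0.0157) and than in XEN cells by -1.14 (SE 0.26, adjusted p = 0.00333), while PYS2 minus XEN was -0.27 (adjusted p = 0.456).

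END2 replicate 3 had the lowest Sparc level of all arrays by both bright probes. Its log2 level differed from the mean of the other END2 arrays by -0.80 for ILMN_3136561, by -1.69 for ILMN_3059326 and by 0.22 for ILMN_1243212. Over all 16299 tested probes the same difference had a median of 0.02, and 95% of probes lay between -1.29 and 1.02. Without this array the difference between END2 and XEN cells was -0.50 for ILMN_3136561 (adjusted p = 0.143) and -0.49 for ILMN_3059326 (adjusted p = 0.149). For ILMN_1243212 it was -1.65 (adjusted p = 0.000123). The END2 minus PYS2 differences without it were -0.30 (adjusted p = 0.373), -0.39 (adjusted p = 0.244) and -1.13 (adjusted p = 0.00171) in the same order. With this array left out, ILMN_1243212 was the only Sparc probe that passed. The END2 against XEN call of ILMN_3136561 was also lost without END2 replicate 1, PYS2 replicate 2 or 3, or XEN replicate 1 or 2 (adjusted p = 0.0501 to 0.165), and with cyclic loess normalization (-0.58, adjusted p = 0.103). The difference was -0.57 without XEN replicate 2 and between -0.85 and -0.77 without the other 4 arrays, beside -0.78 with all 9.

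Thbs1, which encodes thrombospondin 1, a ligand of CD47 and an activator of latent TGFbeta, was read by 1 probe and was detected in END2 cells alone. ILMN_2659151 read 341, 239 and 477 intensity units on the END2 arrays, 24.3, 26.0 and 19.6 on the PYS2 arrays and 15, 53.1 and 19.7 on the XEN arrays. None of the PYS2 or XEN readings was detected, the smallest detection p being 0.113 on XEN replicate 2. Because a level below detection is only an upper bound, a difference from such a line is written as a minimum fold. The minimum is taken against the probe's own level or the lowest level of a detected probe, whichever was higher on each array. An adjusted p beside a minimum fold belongs to the fitted difference, which uses levels below detection. The minimum itself was not tested. Thbs1 was higher in END2 cells than in PYS2 cells by at least 6.36-fold (adjusted p = 1.44e-06, limma) and, against XEN cells, at least 6.57-fold higher (adjusted p = 1.64e-06). Its spread among END2 arrays was wide, 8.24 ± 0.79 on the log2 scale (SD, n = 3), and END2 replicate 3 was the highest.

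Tnc, which encodes tenascin C, a large hexameric glycoprotein of embryonic mesenchyme and wounds, had 7 probes, of which 2 were detected, both on END2 arrays alone. ILMN_2463181 read 267, 303 and 270 intensity units in END2, 19.6, 25.1 and 28.3 in PYS2 and 25.1, 19.3 and 18.3 in XEN cells. It was higher in END2 cells than in PYS2 cells by at least 5.25-fold (adjusted p = 4.44e-08) and, against XEN cells, at least 5.43-fold higher (adjusted p = 4.68e-08). ILMN_2463180 read 219.5, 273.5 and 221 in END2, 26.6, 31.7 and 23.7 in PYS2 and 30.1, 45.7 and 34.1 in XEN cells. The groups stood far apart by both probes, and the END2 arrays were close to each other. By ILMN_2463180 Tnc was higher in END2 cells than in PYS2 cells by at least 4.42-fold (adjusted p = 1.15e-07) and, against XEN cells, at least 4.56-fold higher (adjusted p = 3.31e-07). On XEN replicates 1 and 3 this probe had detection p of 0.0417 and 0.0470, and at a threshold of 0.05 Tnc would count as present in XEN cells. The remaining 5 Tnc probes were detected on no array, and the sources used here do not say which Tnc transcripts each probe reads.

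Smoc1, which encodes a secreted SPARC-related protein of basement membranes, showed the widest range of any member and ran opposite to Tnc and Thbs1. ILMN_1225376 read 32.5, 18.1 and 17.7 intensity units on the END2 arrays, 72.0, 121.6 and 71.0 on the PYS2 arrays and 909, 1471 and 971 on the XEN arrays. The 3 lines did not overlap, and the END2 readings were not detected. Smoc1 was 12.65-fold lower in PYS2 cells than in XEN cells (log2 difference -3.66, SE 0.19, adjusted p = 6.80e-08). In END2 cells it was lower by at least 27.9-fold against XEN cells (adjusted p = 7.25e-10) and by at least 2.2-fold against PYS2 cells (adjusted p = 3.90e-06). The second probe, ILMN_2567020, read 28, 26.4 and 30.5 intensity units in END2, 33.7, 39.2 and 14.9 in PYS2 and 64.0, 109 and 55.4 in XEN cells, and was detected on the XEN arrays alone. By this probe Smoc1 was lower than in XEN cells by at least 1.79-fold in END2 cells (adjusted p = 0.000143) and by at least 1.51-fold in PYS2 cells (adjusted p = 0.000702). ILMN_2567020 was tested only because XEN cells detected it, so this direction was largely set by the presence filter. ILMN_1225376 passed that filter through PYS2 and XEN cells, so its direction in END2 cells was also largely set by it.

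**Figure D3:**
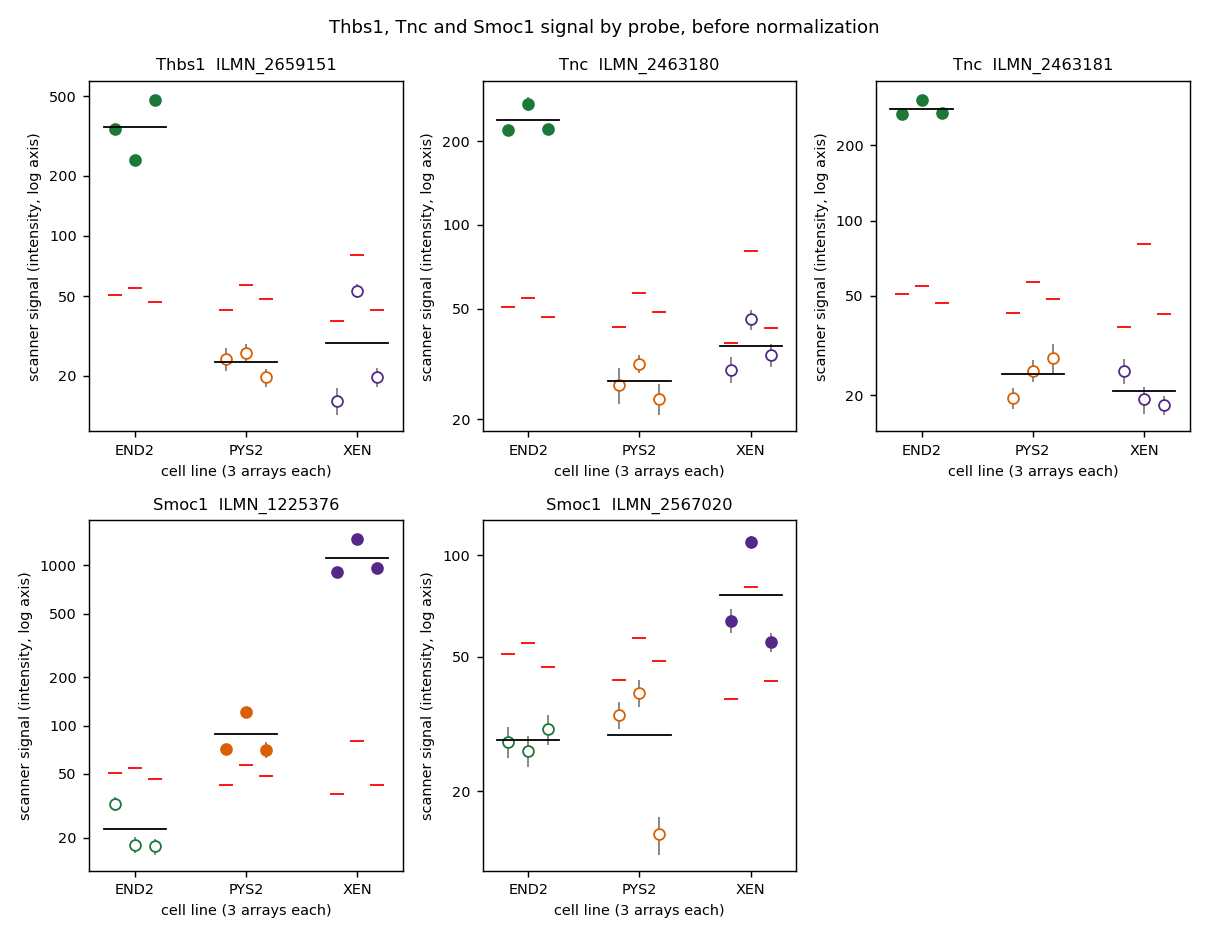
Scanner signal of the detected Thbs1, Tnc and Smoc1 probes on each array (log axis, intensity units, 1 panel per probe) for END2, PYS2 and XEN cells. Filled points are detected and open points undetected, grey bars are the standard error over beads, black lines the mean of 3 arrays and red marks the lowest signal of any detected probe on the array. Thbs1 and Tnc are filled in END2 cells only, and Smoc1 is brightest in XEN cells.

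Within an array each reading was the mean of many beads, 30 to 70 for the 45 detected matricellular readings, and its standard error over beads was 2.51 to 11.96% of the signal. For ILMN_3136561 this error was 2.51 to 4.08%, well under the spread between arrays of 1 line.

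Taking the brightest tested probe of each gene, 4 of the 9 genes could be tested, because they passed the presence filter in at least 1 line. Thbs1 and Tnc passed it through END2 cells alone, so their direction in END2 cells was largely set by the filter. Smoc1 passed it through PYS2 and XEN cells and was undetected in END2 cells, so its direction in END2 cells was likewise largely set. Thbs1 and Tnc were higher in END2 cells than in PYS2 cells (2 of 4, where 26.4% of all 9354 tested genes were higher) and Smoc1 was lower (1 of 4, against 28.8%). Against XEN cells, Thbs1 and Tnc were higher in END2 cells (2 of 4, against 27.5%) and Smoc1 and Sparc were lower (2 of 4, against 26.7%). Between PYS2 and XEN cells no member was higher in PYS2 (0 of 4, against 21.2%) and Smoc1 was lower (1 of 4, against 18.4%). The median log2 difference over the 4 genes was 1.23 for END2 minus PYS2, 0.98 for END2 minus XEN and -0.25 for PYS2 minus XEN, beside -0.03, -0.02 and 0.02 over all tested genes. Of the 3 genes not called between PYS2 and XEN cells, Thbs1 and Tnc were undetected in both lines. With undetected levels set at their bound the medians were 0.78 for END2 minus PYS2 and 0.71 for END2 minus XEN. The medians given for related genes likewise use fitted values, levels below detection included. In bulk RNA, fewer cells with a transcript and less of it per cell cannot be told apart. The END2 comparisons share the END2 arrays.

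**Figure D4:**
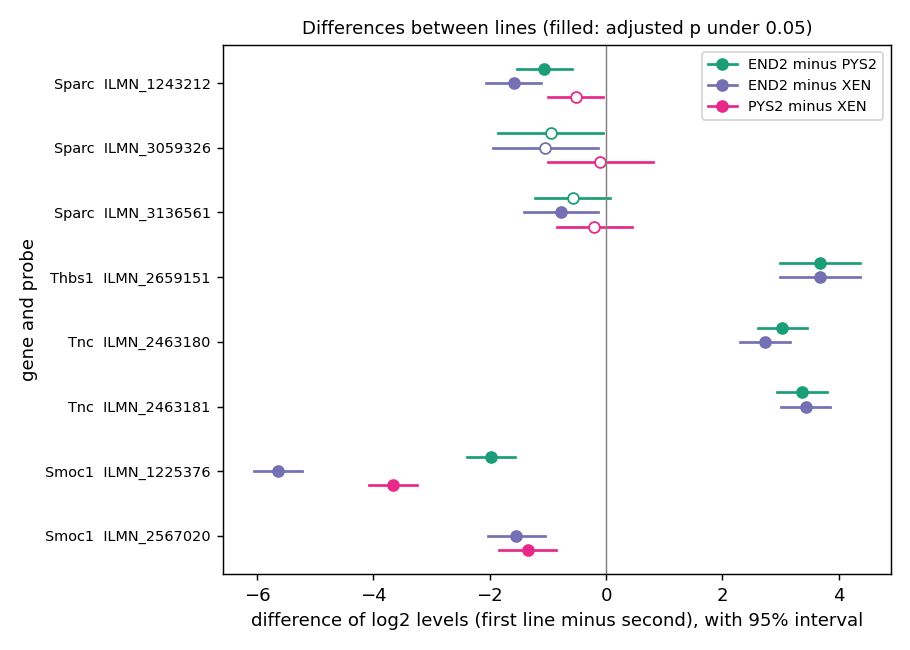
Difference of log2 levels (x axis) for the 8 tested matricellular probes (rows) in END2 minus PYS2, END2 minus XEN and PYS2 minus XEN, with 95% intervals that are not adjusted for the number of probes. Filled points had an adjusted p under 0.05, and pairs in which neither line detected the probe are left out. The fitted values of Thbs1, Tnc and Smoc1 use levels below detection, so the text gives bounds for them.

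The marker lists also differed between the lines. The summed level of the mesenchymal markers was 30660 to 36150 normalized units on END2 arrays, 390.3 to 428.4 on PYS2 arrays and 2209 to 3599 on XEN arrays. All summed levels add linear values, so the brightest genes weigh most, and they include levels below detection. Acta2 had the highest mean log2 level of this list in END2 (14.40) and XEN cells (11.29). In PYS2 cells only Twist1 was present. Col1a1, Col3a1, Dcn and Snai2 were undetected on every PYS2 and XEN array, Acta2 was detected on all END2 and XEN arrays, Twist1 was detected on all 9 arrays, and Lum, Twist2 and Pdgfrb were undetected throughout. Of the 10 tested mesenchymal markers, 7 passed the presence filter through END2 cells alone, so counts of higher and lower calls are not given for them. These examples were chosen after seeing their values, and the part of the mesenchymal list in the Thbs1 and Tnc results was not tested. Of 14 primitive and parietal endoderm markers, 2 were higher and 11 lower in END2 cells against PYS2 cells. Against XEN cells 1 was higher and 13 lower. Sox7, Sox17, Lama1 and Thbd were undetected in END2 cells and passed the presence filter through PYS2 or XEN cells. Their direction in END2 cells was therefore largely set by the filter. Krt19, the 1 marker higher against XEN cells, was undetected in XEN cells, so its direction there was also largely set. Of all tested genes, 26.4% were higher and 28.8% lower against PYS2 cells, and 27.5% and 26.7% against XEN cells. The summed level of these 14 markers was 18620 to 19880 in END2, 59610 to 66230 in PYS2 and 68170 to 92340 in XEN cells. Of 7 tested visceral endoderm markers, 1 was present in END2 cells. The others passed the presence filter through PYS2 or XEN cells, so the counts in END2 cells were largely set by it. None of the 7 was higher in END2 cells. Against PYS2 cells 6 were lower, and against XEN cells 6 (28.8% and 26.7% of all tested genes). The summed level of the visceral endoderm markers was 245.7 to 291.9 in END2, 18360 to 20490 in PYS2 and 1033 to 1854 in XEN cells. The part of both endoderm lists in the Smoc1 and Sparc results was not tested.

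Other matricellular and SPARC-related genes differed between the lines in both directions. Of 20 such genes, 8 were tested. In END2 cells 4 were higher and 2 lower than in PYS2 cells (median 0.43), beside 26.4% and 28.8% of all tested genes. Against XEN cells, 3 were higher and 4 lower in END2 cells (median -0.94), beside 27.5% and 26.7%. In PYS2 cells 2 were higher and 4 lower than in XEN cells (median -0.85), beside 21.2% and 18.4%. Ccn4, also known as Wisp1, averaged 11.89 ± 0.46 (log2, SD, n = 3) in END2 cells, was undetected in both other lines, and was at least 79.9-fold higher than in PYS2 cells (adjusted p = 4.93e-10). It passed the presence filter through END2 cells alone, so its direction was largely set by the filter. Fstl1, a secreted SPARC-family protein, was at 11.39 ± 0.37 in END2 and 8.91 ± 0.27 in XEN cells and undetected in PYS2 cells, 5.60-fold higher in END2 cells than in XEN cells (adjusted p = 1.63e-06). Spock1, a proteoglycan with a SPARC domain, had the reverse pattern, undetected in END2 cells and at 8.82 ± 0.24 in PYS2 and 7.97 ± 0.52 in XEN cells. In END2 cells it was lower by at least 11.2-fold against PYS2 cells (adjusted p = 2.89e-08). Spock1 passed the presence filter through PYS2 and XEN cells, so its direction in END2 cells was largely set by the filter. Ccn2, connective tissue growth factor, was detected on all 9 arrays and was 6.58-fold lower in END2 cells than in XEN cells (adjusted p = 9.27e-05) and 4.66-fold lower in PYS2 cells than in XEN cells (adjusted p = 0.000777).

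Receptors for matricellular proteins were found in all 3 lines. Of 15 receptor genes, 8 were tested. In END2 cells 3 were higher and 3 lower than in PYS2 cells (median -0.08), beside 26.4% and 28.8% of all tested genes. Against XEN cells, 3 were higher and 3 lower in END2 cells (median -0.22), beside 27.5% and 26.7%. In PYS2 cells 1 was higher and 1 lower than in XEN cells (median 0.08), beside 21.2% and 18.4%. Itgav, the alpha v integrin chain, was detected on 2 of 3 PYS2 arrays and on all others, and was 7.84-fold higher in END2 cells than in PYS2 cells (adjusted p = 4.23e-07) and, against XEN cells, 5.84-fold higher (adjusted p = 1.88e-06). Itgb5, a partner chain of Itgav, ran the other way and was 5.29-fold lower in END2 cells than in XEN cells (adjusted p = 3.72e-07). Cd47, the thrombospondin receptor, was 1.77-fold higher in END2 cells than in PYS2 cells (adjusted p = 0.0154) and, against XEN cells, 2.90-fold higher (adjusted p = 0.000292). Cd44, a receptor for hyaluronan and osteopontin, was 2.25-fold higher in END2 cells than in PYS2 cells (adjusted p = 0.0167) and, against XEN cells, 3.27-fold higher (adjusted p = 0.00188).

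Collagens and fibronectin are structural matrix proteins bound by SPARC, thrombospondin 1 and tenascin C. Of 10 genes, 8 were tested and all 8 were present in END2 cells, with 2 present in PYS2 and 2 in XEN cells. Of the 8, 6 passed the presence filter through END2 cells alone, so the counts in END2 cells were largely set by it. In END2 cells 6 were higher and 1 lower than in PYS2 cells, beside 26.4% and 28.8% of all tested genes. Against XEN cells, 6 were higher and 2 lower in END2 cells, beside 27.5% and 26.7%. In PYS2 cells 1 was higher and none lower than in XEN cells (median 0.05), beside 21.2% and 18.4%. The higher gene was Col5a1, which was detected on 1 PYS2 array and on no XEN array, so this call rests on levels near or below detection. Fn1, fibronectin, was higher in END2 cells than in PYS2 cells by at least 47.9-fold (adjusted p = 7.25e-08), and Col1a1, a chain of collagen I, at least 36.0-fold higher (adjusted p = 1.54e-10). Col5a1 and Col5a2, chains of collagen V, were higher in END2 cells than in XEN cells by at least 40.95-fold (adjusted p = 2.23e-10) and 13.8-fold (adjusted p = 1.75e-09). The genes lower in END2 cells than in XEN cells, named after their values were seen, were Col4a1 and Col4a2, chains of the basement membrane collagen IV. This list shares Col1a1, Col1a2 and Col3a1 with the mesenchymal markers, and Col4a1 and Col4a2 with the endoderm markers.

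TGFbeta, which thrombospondin 1 can activate, was also examined. Of 12 ligands, receptors, Smads and related genes, 9 were tested. In END2 cells 4 were higher and 2 lower than in PYS2 cells (median 0.07), beside 26.4% and 28.8% of all tested genes. Against XEN cells, 5 were higher and 2 lower in END2 cells (median 1.69), beside 27.5% and 26.7%. In PYS2 cells 3 were higher and 1 lower than in XEN cells (median 0.14), beside 21.2% and 18.4%. The ligand Tgfb3 was detected in END2 cells only and was at least 12.6-fold higher than in PYS2 cells (adjusted p = 3.67e-09), and Tgfb2 was 3.30-fold higher (adjusted p = 1.26e-05). Tgfb3 passed the presence filter through END2 cells alone, so its direction was largely set by the filter. Of the receptors, Tgfbr2 was 5.58-fold higher in END2 cells than in PYS2 cells (adjusted p = 3.84e-07), whereas the co-receptor Tgfbr3 was 3.71-fold lower (adjusted p = 2.62e-05).

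**Figure D5:**
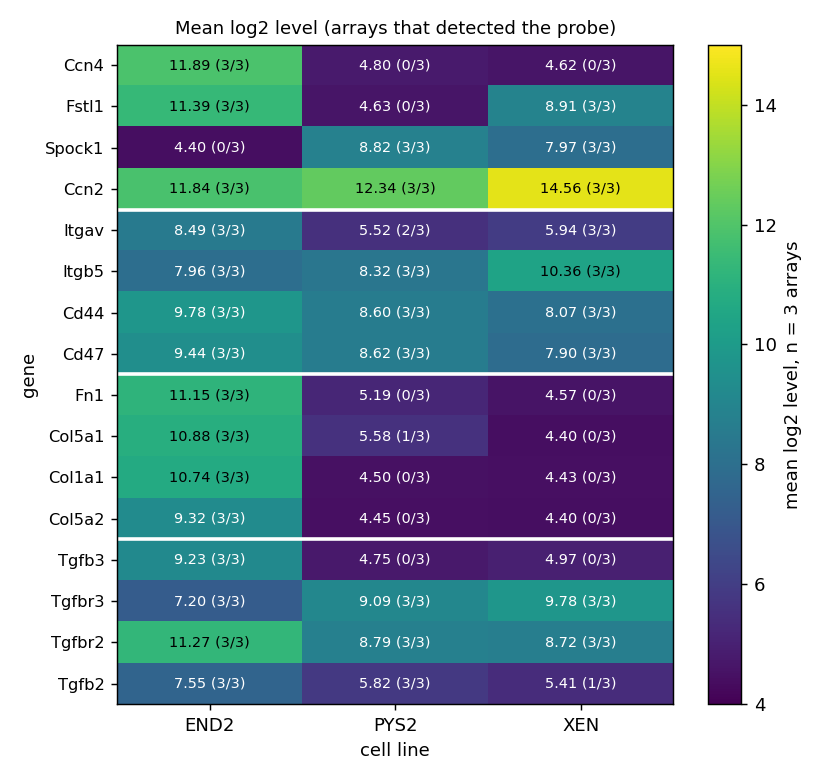
Mean log2 level over 3 arrays (colour and first number) of the named related genes in END2, PYS2 and XEN cells, with the number of arrays that detected the probe in parentheses. From top to bottom the blocks are other matricellular genes, receptors, collagens and fibronectin, and TGFbeta genes. Fn1, Col1a1, Col5a2, Ccn4 and Tgfb3 were detected on all END2 arrays and on no PYS2 or XEN array.

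Likeness to Sparc and Smoc1 was ranked over the 9 arrays among 9353 other tested genes, by Pearson's r of the log2 levels of the brightest probes. The 9 arrays are 3 lines with 3 arrays each, so r is given as a description. For Smoc1, whose line means lie far apart, r is set largely by the line means. The Sparc line means (13.42, 14.00 and 14.20) lie close together beside the SD within lines (0.39 to 0.48). For Sparc, r therefore also rests on differences between arrays of a line. For Sparc the highest values were 0.944 for Mbtps1, 0.943 for Mpv17 and 0.937 for Slc25a30. For Smoc1 they were 0.994 for Capn6, 0.991 for Tfpi and 0.989 for Pdzd3. Capn6, the closest to Smoc1, averaged 4.43 for END2, 6.71 for PYS2 and 11.10 for XEN on the log2 scale.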

How the data were processed

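The authors hybridized RNA to Illumina MouseWG-6 arrays and read them with BeadStudio. Their deposited scanner table holds each probe's signal as a linear intensity, not normalized between arrays, with the spread and number of beads, and a detection score as a fraction (the deposited score subtracted from 1 was taken as the detection p). A second deposited table holds log2 values that the authors normalized with lumi (version: not given in these sources), used as an alternative. In the scanner table, 24 columns of other arrays were not used.

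Signals were corrected and quantile normalized with neqc (offset 16, detection p for background) in limma 3.58.1 under R 4.3.3. Of 45281 probes, 34885 carry 1 gene symbol. The 16299 probes present in at least 1 line were compared in 1 limma model over 9 arrays, with Benjamini-Hochberg adjustment over all of them and a threshold of 0.05. Those among them with 1 gene symbol covered 9354 genes. The brightest tested probe stood for a gene. The fit was tested on simulated data. From each related list up to 4 genes with the largest called difference were named, and for Sparc and the member with the widest range the 3 most alike genes. Older symbols were updated through RefSeq. Replicate numbers were not taken to pair the arrays. Members and lists were chosen with earlier results of these data known. Alternatives were other normalizations, filters, thresholds, presence rules, spreads, probe averaging, the block, fits of only the lines compared and each array left out.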

Additional observations from a re-analysis of the deposited data

How the results depend on the processing

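Of 171 counts of matricellular genes recomputed under alternatives, 158 stayed within 1.5 times the main count, and of 380 differences of single probes 356 kept their direction and side of the threshold. The number of genes lower in END2 than in XEN cells was 2, and it was 1, with the Sparc call lost, with no normalization between arrays, cyclic loess, no filter on dim probes, only the lines compared, an adjusted p under 0.01 or at least a 2-fold difference, and 1 to 2 with an array left out (1 without END2 replicate 1 or 3, PYS2 replicate 2 or 3, or XEN replicate 1 or 2). The adjusted p of Sparc ILMN_3136561 in that comparison ranged from 0.0217 to 0.174, and without a filter more probes were tested. The number lower in END2 than in PYS2 cells was 2 with the mean of a gene's probes, where Sparc was added. With an array left out, PYS2 minus XEN ranged from -0.32 to 0.12 for Sparc ILMN_3059326 and from -0.39 to 0.040 for ILMN_3136561. It was positive without PYS2 replicate 1 (0.12 and 0.010) and without XEN replicate 2 (0.096 and 0.040), no difference was called, and the cause was not tested. The calls of Thbs1, Tnc and Smoc1 kept their direction and side of the threshold under all alternatives, but the authors' normalized values gave smaller log2 differences, such as 1.55 for Thbs1 and 1.33 for Tnc ILMN_2463181 in END2 minus PYS2, and -3.07 for Smoc1 ILMN_1225376 in END2 minus XEN. Without normalization between arrays Sparc ILMN_1243212 lost its call between END2 and PYS2 cells (-0.79, adjusted p = 0.153). Other calls were gained. ILMN_3059326 passed for END2 minus XEN without background correction (adjusted p = 0.0396), with array weights (0.0327), with a stricter filter (0.04996) and without END2 replicate 1 (0.0448) or 2 (0.0158), and for END2 minus PYS2 without END2 replicate 2 (0.0218). ILMN_1243212 passed for PYS2 minus XEN with the authors' values (0.0401), only the lines compared (0.0391) and without END2 replicate 1 (0.0439). Presence counts changed only at a detection p of 0.05, with 3 genes in XEN cells.

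Arrays with the same replicate number did not deviate together in every pair (correlations of deviations -0.276 to 0.31, over 0.1 in 4 of 9 pairs, namely the 3 pairs of replicate 2 and 1 of replicate 3), so the numbers were not taken to pair the arrays. With a replicate block the counts of genes called were 2 higher and 1 lower for END2 against PYS2, 2 higher and 2 lower for END2 against XEN and 0 higher and 1 lower for PYS2 against XEN, as without it. Signal limits the dim members, since a reading below detection sets only an upper bound.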

Other observations

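Other cell type markers were nearly silent in these lines. Of 6 pluripotency markers, Nanog was detected on all END2 arrays (mean log2 level 6.65) and Utf1 on all XEN arrays (6.15), while Pou5f1, Zfp42, Dppa3 and Tdgf1 were detected on none of the 9. Of the trophoblast markers, Cdx2 was detected on all 3 PYS2 arrays (6.04) and on no END2 or XEN array. Of the blood and macrophage markers, Csf1r was detected on 2 PYS2 arrays (5.60) and no other. Among other thrombospondin-related genes, Thbs3 was present in END2 (6.93) and PYS2 cells (5.97) and was undetected in XEN cells. Nanog, Utf1, Cdx2, Csf1r and Thbs3 were singled out after their values were seen.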
